A study of Rattus norvegicus with 12 samples.

Results

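Secretory airway epithelial genes are taken here as 10 named genes of the cells that coat the airways with protein: the secretoglobins Scgb1a1, Scgb3a1 and Scgb3a2, the BPI-fold proteins Bpifa1 and Bpifb1, the mucin Muc5b, the antibacterial lectin Reg3g, the immunoglobulin receptor Pigr, and Krt5 and Trp63, which mark the basal cells that renew this epithelium. They were chosen by name from a table of 32883 genes. All 10 were found, 9 by their symbol and Trp63 under its other symbol Tp63, and 8 had enough counts to enter the test across 15257 genes. Reg3g and Krt5 did not. The samples are RNA from whole lungs of rats, read as 12 libraries that make up 3 groups of 4, and all were labelled wild type and 25 days. Control samples carry the label control alone. MCT-vehicle rats received monocrotaline, a plant alkaloid that injures lung vessels and is used to model pulmonary hypertension, and the vehicle of ferrostatin-1. MCT-Fer-1 rats received monocrotaline and ferrostatin-1, an inhibitor of the iron-dependent, lipid-peroxide form of cell death called ferroptosis. The labels give 10 days for this dosing with either agent. Strain, sex and age are not given in the labels, and neither is any treatment of the Control rats with vehicle. Nothing in the labels says that the 4 libraries of a group came from separate rats, so each p-value reflects the spread among the samples at hand, which may be technical.

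Club cells and goblet cells secrete the fluid and mucus that line the airways, and both can descend from basal cells. Basal cells rest on the basement membrane and carry the keratin Krt5 and the transcription factor p63. Secretoglobins are small secreted proteins of club cells. BPI-fold proteins and Muc5b come mostly from the proximal airways and the glands, Muc5b being a gel-forming mucin needed for mucus clearance. Reg3g binds bacterial cell walls, and Pigr carries polymeric IgA across the epithelium into the airway. Airways make up a small part of a whole lung, so the amount of airway in a piece of tissue can bear on the values below, and fewer cells of a type and less RNA per cell cannot be told apart in such samples. The label matched the data only in part: Scgb1a1, Scgb3a2 and Pigr were at 184 CPM (counts scaled by library size) or more in every library, whereas Krt5 was at 0 in 7 of 12 libraries and Reg3g in 8 of 12.

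The promoters of 5 members are shown because these genes behaved differently in the libraries described below: Scgb1a1 and Pigr were steady, and Scgb3a1, Bpifa1 and Bpifb1 were far higher in 1 library, MCT-vehicle 2, than in any other. Each line gives the 250 bases before the annotated start, 5′ to 3′ on the gene's strand, from RefSeq on GRCr8. The windows lie at chr1:215409687-215409936 (minus strand) for Scgb1a1, chr10:34468916-34469165 (plus) for Scgb3a1, chr3:163087715-163087964 (plus) for Bpifa1, chr3:163132901-163133150 (plus) for Bpifb1 and chr13:44850932-44851181 (plus) for Pigr. Capitals mark matches to the letters searched.
Scgb1a1: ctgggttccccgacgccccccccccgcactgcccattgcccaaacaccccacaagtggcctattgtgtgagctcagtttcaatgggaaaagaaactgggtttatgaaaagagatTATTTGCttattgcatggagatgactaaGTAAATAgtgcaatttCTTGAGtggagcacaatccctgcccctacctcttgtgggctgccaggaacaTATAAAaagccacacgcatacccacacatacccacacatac
Scgb3a1: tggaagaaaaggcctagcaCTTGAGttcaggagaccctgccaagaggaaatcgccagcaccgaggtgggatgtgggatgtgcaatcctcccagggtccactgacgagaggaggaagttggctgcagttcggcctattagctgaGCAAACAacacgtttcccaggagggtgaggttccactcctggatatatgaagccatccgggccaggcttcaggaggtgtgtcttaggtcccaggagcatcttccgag
Bpifa1: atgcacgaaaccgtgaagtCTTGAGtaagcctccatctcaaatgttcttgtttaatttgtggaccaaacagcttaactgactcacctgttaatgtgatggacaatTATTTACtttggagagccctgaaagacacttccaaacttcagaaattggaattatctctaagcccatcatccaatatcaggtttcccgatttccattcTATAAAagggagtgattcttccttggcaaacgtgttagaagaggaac
Bpifb1: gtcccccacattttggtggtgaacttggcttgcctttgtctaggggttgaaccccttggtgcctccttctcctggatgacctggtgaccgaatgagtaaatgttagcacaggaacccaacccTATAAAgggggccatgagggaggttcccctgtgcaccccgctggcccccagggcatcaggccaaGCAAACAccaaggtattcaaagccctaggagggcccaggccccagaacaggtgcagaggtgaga
Pigr: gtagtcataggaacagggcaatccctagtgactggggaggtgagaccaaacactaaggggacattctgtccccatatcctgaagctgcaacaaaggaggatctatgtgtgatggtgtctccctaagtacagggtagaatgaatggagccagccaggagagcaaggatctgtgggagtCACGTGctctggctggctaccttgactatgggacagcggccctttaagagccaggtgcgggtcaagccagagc

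The letters searched on both strands were TGTTTAC or TATTTAC or TGTTTGC or TATTTGC for FOXA factors, CTCAAG for NKX2-1, TTCNNNGAA for STAT factors and CACGTG for E-box factors, and TATAAA was searched on the gene's own strand. No match overlapped another. FOXA letters began 136 and 108 bases before the start of Scgb1a1, 107 before Scgb3a1, 145 before Bpifa1 and 64 before Bpifb1, and none were in the Pigr window; 12.2% of the 33469 promoters in the table hold a match. NKX2-1 letters, held by 13.3%, began 92 bases before Scgb1a1 and 231 before both Scgb3a1 and Bpifa1, and among the members not shown 229 before Scgb3a2 and 17 before Krt5. TATAAA, held by 8.06%, began 41 bases before Scgb1a1, 47 before Bpifa1, 128 before Bpifb1 and 32 before Reg3g. The E-box letters, held by 5.59%, began 73 bases before Pigr. STAT letters, held by 7.67%, were in none of the 9 member promoters present in the table. A match describes the letters only. The steady Scgb1a1 and the variable Bpifa1 held the same 3 kinds of match.

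None of the 8 members tested was called in any comparison over all 12 libraries (edgeR quasi-likelihood test, Benjamini-Hochberg adjusted p below 0.05 over all genes tested). For MCT-vehicle against Control, which asks what differed after monocrotaline, the background share of genes called was 18.6% (10.3% higher, 8.28% lower). For MCT-Fer-1 against MCT-vehicle, which asks what differed with ferrostatin-1, it was 0%. For MCT-Fer-1 against Control it was 10.8% (6.67% higher, 4.12% lower), and this comparison shares its 4 Control libraries with the first. At an unadjusted p below 0.05 the members numbered 2 (Bpifb1 and Pigr), 3 (Scgb3a1, Bpifa1 and Muc5b) and 1 (Pigr) in that order, against 32.1%, 12% and 25.2% of all genes. DESeq2 called 1 member, Bpifb1, in MCT-vehicle against Control, and no other member to which it gave an adjusted p. It gave none to Scgb3a1 and Bpifa1 in any comparison, nor to Tp63 in MCT-Fer-1 against MCT-vehicle. The median log2 fold change of the 8 members was 0.63, -0.91 and -0.31, beside 0.02, -0.01 and -0.00 for all genes, with Bpifa1 among the 8. For the other 7 members the median was 0.19, -0.14 and -0.30 over the 12 libraries, and -0.35, 0.04 and -0.11 without the libraries MCT-vehicle 2 and Control 4, where Bpifa1 had too few counts to be tested.

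MCT-vehicle 2 and Control 4 stood apart. The summed level of Scgb3a1, Bpifa1, Bpifb1 and Muc5b was 1012 CPM in MCT-vehicle 2 and 213 CPM in Control 4, and between 22.9 and 99.0 CPM in the other 10 libraries. MCT-vehicle 2 was the highest of the 12 libraries for 7 of the 10 members, against 11.1% of all genes tested. The same libraries were the highest for heart muscle: the summed level of 10 heart muscle genes was 418 CPM in MCT-vehicle 2, 265 CPM in Control 4 and 17.3 to 81.8 CPM elsewhere, and they were the top pair for 8 of the 10. Myh6, the atrial myosin heavy chain, was at 104 CPM in MCT-vehicle 2, 50.8 in Control 4 and 9.55 in MCT-vehicle 3, and at no more than 1.05 in the other 9 libraries. For 11 ciliated cell genes the sum in MCT-vehicle 2, 843 CPM, was barely above the 468 to 834 CPM of the other 10 libraries. Gene by gene MCT-vehicle 2 stood out more, as 10 of the 11 were highest there. Control 4, at 762 CPM, lay among Control 1 to 3, at 834, 750 and 679 CPM. Other club cell genes (10) summed to 2072 CPM in MCT-vehicle 2 and 2325 in Control 4, above the 1281 to 1943 CPM elsewhere. These libraries were the top pair for 2 of the 10 genes. Cartilage genes of large airways did not stand out in these libraries (7.03 and 13.0 against 3.83 to 15.7 CPM). Their defining members Col2a1, Acan and Matn1 were at no more than 0.492 CPM anywhere. What part neighbouring tissue had in the member values was not tested. Fold changes of the tested members are therefore also given without these 2 libraries, an alternative chosen after seeing the data; 10.9%, 0% and 6.39% of 15314 genes were then called in the 3 comparisons, in the order above.

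**Figure D1:**
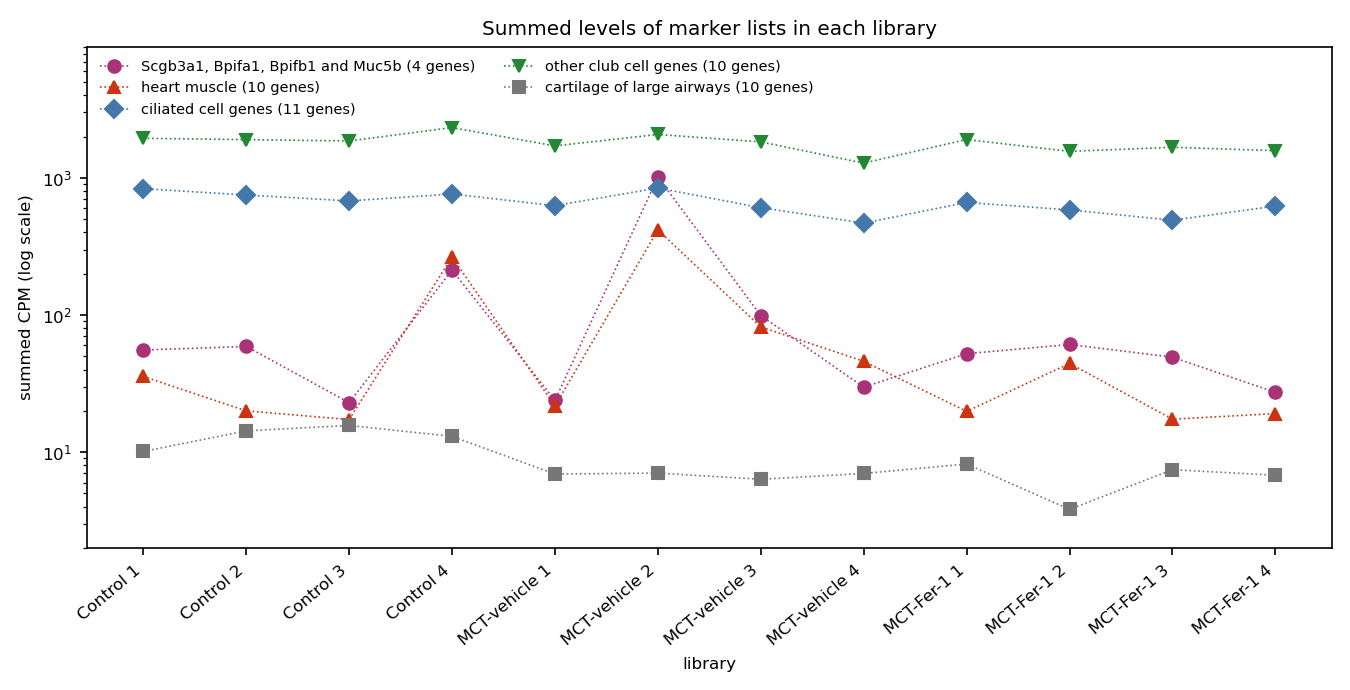
Summed CPM (log scale) of 5 gene groups (the 4 variable members, heart muscle, ciliated, other club cell and cartilage genes) in each of the 12 libraries, 1 point per library; dotted lines only join the points of a group. The sum of Scgb3a1, Bpifa1, Bpifb1 and Muc5b reaches 1012 CPM in MCT-vehicle 2 and 213 in Control 4 against 22.9 to 99.0 elsewhere, and the heart muscle sum is highest in the same libraries.

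Scgb1a1 (ENSRNOG00000020196), uteroglobin, the main secreted protein of club cells, was at a high and even level. It was at 8326, 8090, 8000 and 8986 CPM in Control 1 to 4, at 5659, 8058, 7545 and 5973 in MCT-vehicle 1 to 4, and at 7693, 6882, 5914 and 9601 in MCT-Fer-1 1 to 4. MCT-vehicle 1 and 4 and MCT-Fer-1 3 were the lowest, and of the monocrotaline libraries MCT-vehicle 2 and MCT-Fer-1 4 alone reached the range of Control. The means were 8350 ± 445, 6809 ± 1172 and 7522 ± 1565 CPM (SD, n = 4 each). The log2 fold change was -0.29 ± 0.15 (SE; edgeR adjusted p = 0.198) in MCT-vehicle against Control, 0.14 ± 0.15 (adjusted p = 0.736) in MCT-Fer-1 against MCT-vehicle and -0.15 ± 0.15 (adjusted p = 0.592) in MCT-Fer-1 against Control. Without the 2 libraries these were -0.35, 0.24 and -0.11. Of its summed CPM, 8.88% came from MCT-vehicle 2, close to an even share.

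Scgb3a1 (ENSRNOG00000002718), a secretoglobin of proximal airway secretory cells and glands, varied mostly between single libraries. Its levels were 6.49, 5.54, 1.81 and 114 CPM in Control 1 to 4, 1.45, 318, 6.64 and 1.31 in MCT-vehicle 1 to 4, and 4.22, 1.98, 1.89 and 4.14 in MCT-Fer-1 1 to 4. Control 4 and MCT-vehicle 2 were high, and the other 10 libraries lay between 1.31 and 6.64 CPM. Those high libraries held 92.4% of its summed CPM. The means were 32.0 ± 54.8, 81.8 ± 157 and 3.06 ± 1.30 CPM (SD, n = 4 each), so the SD of the first and second groups was larger than their mean. The log2 fold changes were 1.36 ± 1.67 (SE; edgeR adjusted p = 0.615), -4.74 ± 1.99 (adjusted p = 0.382) and -3.38 ± 1.92 (adjusted p = 0.316) in the same order of comparisons. Without the 2 libraries they were -0.60 ± 0.67, 0.01 ± 0.63 and -0.60 ± 0.62, so the first changed sign and the second came to nearly 0.

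Scgb3a2 (ENSRNOG00000026912), a secretoglobin of bronchiolar and bronchial secretory cells, held 279, 339, 184 and 301 CPM in Control 1 to 4. It held 242, 475, 311 and 233 CPM in MCT-vehicle 1 to 4 and 400, 317, 272 and 443 in MCT-Fer-1 1 to 4. MCT-vehicle 2 was again the highest library and Control 3 the lowest, and all groups overlapped. The log2 fold changes were 0.19 ± 0.25 (SE; edgeR adjusted p = 0.631), 0.18 ± 0.25 (adjusted p = 0.808) and 0.38 ± 0.25 (adjusted p = 0.393), and -0.03, 0.45 and 0.42 without the 2 libraries.

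**Figure D2:**
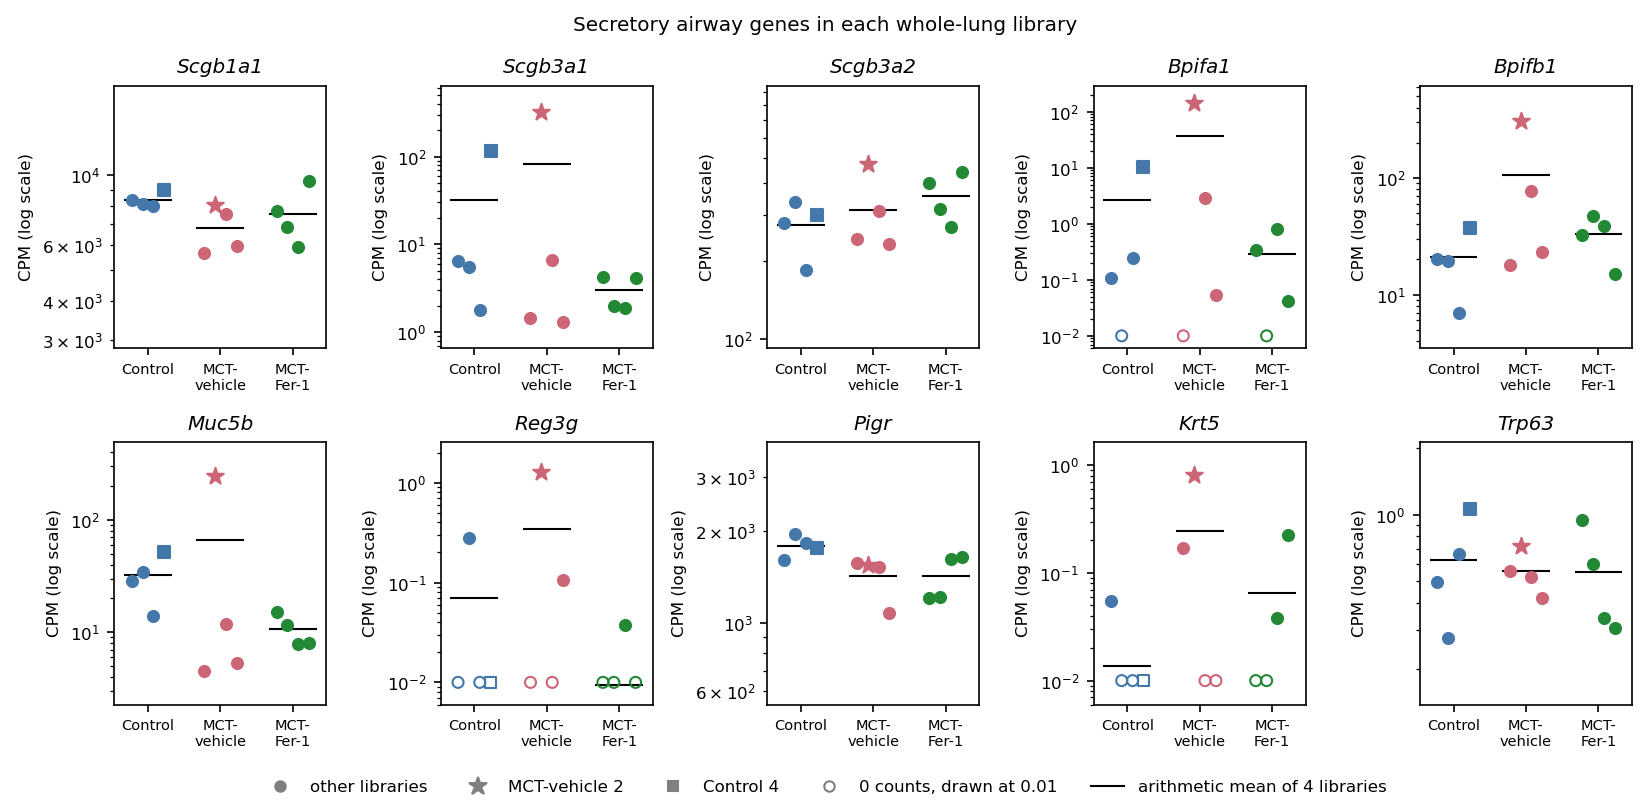
CPM (log scale) of the 10 members in each library, by group; points are libraries, the horizontal line is the arithmetic mean of 4 libraries, the star is MCT-vehicle 2, the square is Control 4, and open points are 0 counts drawn at 0.01. Scgb3a1, Bpifa1, Bpifb1 and Muc5b have MCT-vehicle 2 far above the other libraries of its group, while Scgb1a1 and Pigr vary little.

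Bpifa1 (ENSRNOG00000013859), a secreted protein of the nose and proximal airways that acts at the airway surface, was nearly absent from most libraries. Control 1 to 4 held 0.110, 0, 0.241 and 10.3 CPM, MCT-vehicle 1 to 4 held 0, 144, 2.83 and 0.0525, and MCT-Fer-1 1 to 4 held 0.345, 0, 0.794 and 0.0420. MCT-vehicle 2, with 3185 counts, held 90.8% of the summed CPM, and Control 4, with 174 counts, most of the rest. In 8 of the 12 libraries the gene had 4 counts or fewer. The log2 fold changes were 3.81 ± 2.05 (SE; edgeR adjusted p = 0.231), -7.22 ± 2.64 (adjusted p = 0.330) and -3.41 ± 2.77 (adjusted p = 0.497). Without the 2 libraries it had too few counts to be tested.

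Bpifb1 (ENSRNOG00000015468), a longer relative secreted by goblet cells and glands, was found in every library. Control 1 to 4 held 20.2, 19.4, 6.93 and 36.8 CPM, MCT-vehicle 1 to 4 held 17.8, 306, 77.8 and 23.1, and MCT-Fer-1 1 to 4 held 32.4, 47.3, 38.6 and 14.99. MCT-vehicle 2 and 3 were the highest libraries, and MCT-vehicle 1 and 4 were within the range of the Control libraries. The means were 20.8 ± 12.3, 106 ± 136 and 33.3 ± 13.7 CPM (SD, n = 4 each). In MCT-vehicle against Control the log2 fold change was 2.35 ± 0.90 (SE; edgeR adjusted p = 0.0979; DESeq2 adjusted p = 0.0324), and without the 2 libraries it was 1.33 ± 0.66 (edgeR adjusted p = 0.232). It was -1.68 ± 0.87 (adjusted p = 0.475) in MCT-Fer-1 against MCT-vehicle and 0.67 ± 0.87 (adjusted p = 0.699) in MCT-Fer-1 against Control, and -0.24 ± 0.59 and 1.09 ± 0.62 without the 2 libraries.

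Muc5b (ENSRNOG00000019846), the gel-forming mucin of proximal airways and glands, was the member whose call turned on 1 library. Control 1 to 4 held 28.7, 34.1, 14.0 and 51.4 CPM, MCT-vehicle 1 to 4 held 4.57, 244, 11.8 and 5.36, and MCT-Fer-1 1 to 4 held 15.3, 11.7, 7.94 and 8.12. Apart from MCT-vehicle 2, every MCT-vehicle library was below every Control library, and 3 of the 4 MCT-Fer-1 libraries were too. MCT-Fer-1 1, at 15.3 CPM, was above Control 3. Over all 12 libraries the log2 fold changes were 1.06 ± 1.12 (SE; edgeR adjusted p = 0.561), -2.66 ± 1.20 (adjusted p = 0.414) and -1.61 ± 1.17 (adjusted p = 0.444). Without MCT-vehicle 2 alone, Muc5b was called lower in MCT-vehicle against Control, at -2.18 ± 0.47 (edgeR adjusted p = 0.0121), and in MCT-Fer-1 against Control, at -1.60 ± 0.41 (adjusted p = 0.0325). MCT-Fer-1 against MCT-vehicle was then 0.58 ± 0.46 (adjusted p = 0.647). With Control 4 left out as well, the first was -1.85 ± 0.44 (adjusted p = 0.0262; 25.6 ± 10.4 CPM in Control against 7.24 ± 3.96 in MCT-vehicle, SD, n = 3 each), and MCT-Fer-1 against Control, at -1.27 ± 0.39, was not called (adjusted p = 0.0856). MCT-vehicle 2 enters MCT-Fer-1 against Control through the shared error: a fit of those groups alone gave -1.61 ± 0.39 (adjusted p = 0.0339), the same difference with a smaller error.

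**Figure D3:**
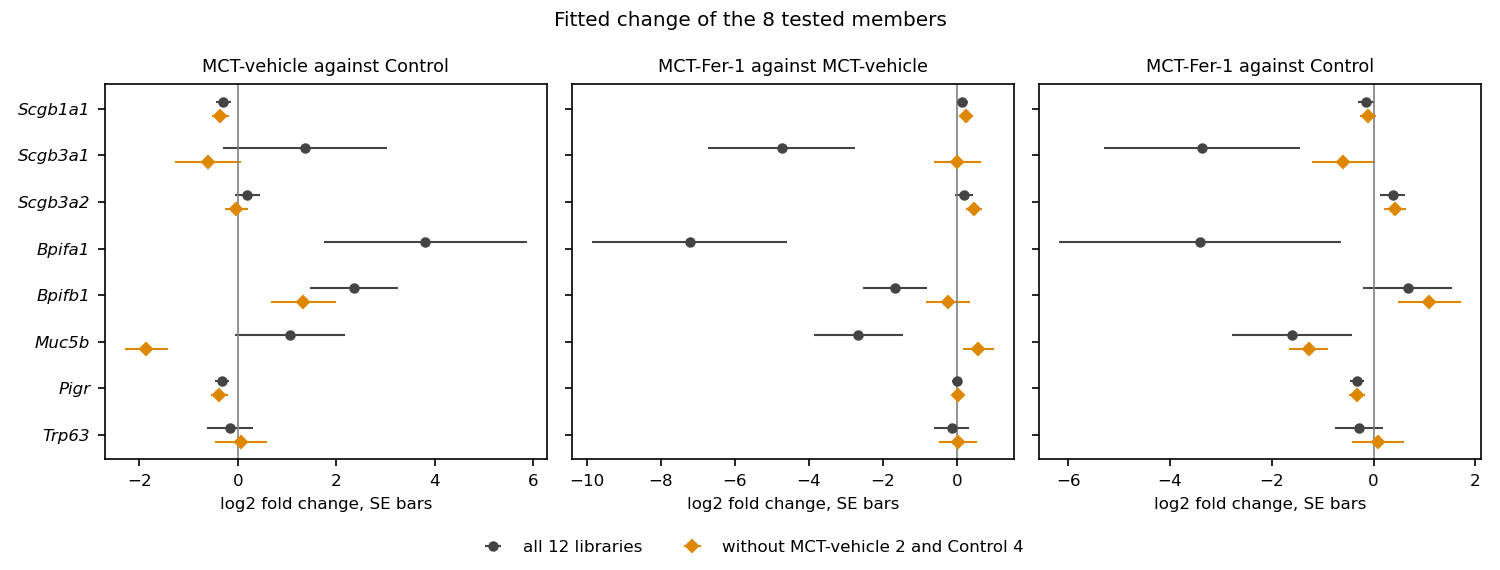
log2 fold change of each tested member in the 3 comparisons, with its standard error, over 12 libraries and without MCT-vehicle 2 and Control 4; Bpifa1 has no value without them because it had too few counts. Muc5b moves from 1.06 to -1.85 in MCT-vehicle against Control, whereas Scgb1a1 and Pigr hardly move.

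Reg3g (ENSRNOG00000006579), an antibacterial lectin that epithelia make during inflammation, was at the limit of detection. It had 5 counts in Control 2 (0.277 CPM), 28 in MCT-vehicle 2 (1.27 CPM), 2 in MCT-vehicle 4 (0.105 CPM), 1 in MCT-Fer-1 3 (0.0378 CPM) and 0 in the other 8 libraries. MCT-vehicle 2 held 75.2% of its summed CPM. A library with 0 counts allows up to 3, or 0.0420 to 0.259 CPM over the 12 depths, for counting error only. The exact permutation test (two-sided, CPM) gave p = 0.714, 0.429 and 1 in the order of comparisons used above, with a smallest possible p of 0.0286 for 4 against 4. Over 6 such tests, 3 of them on Krt5, the adjusted values were 0.857, 0.857 and 1.

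Pigr (ENSRNOG00000004405), which carries IgA into the airway lumen, was the only tested member whose libraries did not overlap between Control and MCT-vehicle. Control 1 to 4 held 1615, 1955, 1826 and 1757 CPM, MCT-vehicle 1 to 4 held 1570, 1548, 1526 and 1084, and MCT-Fer-1 1 to 4 held 1213, 1223, 1618 and 1648. Every MCT-vehicle library was below every Control library, which held for 21.5% of all genes in one direction or the other, and MCT-vehicle 4 was the lowest of all. No tested member's libraries separated MCT-Fer-1 from MCT-vehicle, as 6.1% of all genes did, or MCT-Fer-1 from Control, as 19.1% did. The means were 1788 ± 142, 1432 ± 233 and 1425 ± 240 CPM (SD, n = 4 each). The log2 fold change was -0.32 ± 0.14 (SE; edgeR adjusted p = 0.128) in MCT-vehicle against Control and -0.33 ± 0.14 (adjusted p = 0.158) in MCT-Fer-1 against Control, neither past the threshold. Between the monocrotaline groups it was -0.01 ± 0.14 (adjusted p = 0.991). Without the 2 libraries the values were -0.37, -0.33 and 0.04 in that order, so Pigr moved little with them.

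Krt5 (ENSRNOG00000050420), the keratin of basal cells, was counted in 5 libraries: 1 count in Control 1 (0.0550 CPM), 4 in MCT-vehicle 1 (0.171 CPM), 18 in MCT-vehicle 2 (0.817 CPM), 1 in MCT-Fer-1 3 (0.0378 CPM) and 16 in MCT-Fer-1 4 (0.224 CPM). MCT-vehicle 2 held 62.6% of the summed CPM, and MCT-Fer-1 4 is the most deeply sequenced library. The exact permutation test (two-sided, CPM) gave p = 0.429, 0.714 and 0.714, each 0.857 after adjustment. Tp63 (ENSRNOG00000001924), the basal cell transcription factor p63, had 5 to 22 counts in every library. Its levels were 0.495, 0.277, 0.663 and 1.07 CPM in Control 1 to 4, 0.555, 0.726, 0.522 and 0.420 in MCT-vehicle 1 to 4, and 0.948, 0.599, 0.340 and 0.308 in MCT-Fer-1 1 to 4. The groups overlapped throughout, with Control 4 the highest and Control 2 the lowest library. Its log2 fold changes were -0.15 ± 0.47 (SE; edgeR adjusted p = 0.856), -0.14 ± 0.47 (adjusted p = 0.926) and -0.30 ± 0.47 (adjusted p = 0.757), and 0.07, 0.02 and 0.08 without the 2 libraries.

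The members fell into steady and variable genes. The SD of log2 CPM around the group means was 3.47 for Bpifa1, 2.59 for Scgb3a1, 1.62 for Muc5b and 1.30 for Bpifb1, the 100, 99.9, 99.3 and 98.7 percentiles of all genes tested, whose median SD was 0.195. It was 0.573 for Tp63 (89.7 percentile), 0.397 for Scgb3a2 (79.1), 0.227 for Scgb1a1 (57.6) and 0.216 for Pigr (55.0).

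Several members deviated together from library to library, steady and variable ones alike. Over the 12 libraries, each expressed as its deviation from the group mean, Pearson's r between Scgb3a1 and Muc5b was 0.91 (permutation p = 0.00213, adjusted over 28 pairs 0.0195) and Spearman's rho 0.81 (permutation p = 0.00242, adjusted 0.0391). Leaving out MCT-vehicle 2 and Control 4, the libraries farthest from the median of Scgb3a1, r was 0.85. Bpifb1 and Muc5b had r of 0.90 (permutation p = 0.00214, adjusted 0.0195) and rho of 0.73 (permutation p = 0.0115, adjusted 0.0642), and r of 0.79 without MCT-vehicle 1 and 2. For Scgb1a1 and Scgb3a2 r was 0.77 (permutation p = 0.00279, adjusted 0.0195) and rho 0.78 (permutation p = 0.00419, adjusted 0.0391), and r was 0.76 without MCT-Fer-1 3 and 4. The lowest p was that of Scgb1a1 and Scgb3a1, with r of 0.64 (permutation p = 0.00041, adjusted 0.0115) and rho of 0.79 (permutation p = 0.00288, adjusted 0.0391), and r of 0.83 without MCT-Fer-1 3 and 4. Scgb3a2 and Muc5b had r of 0.79 (permutation p = 0.00718, adjusted 0.0287) and rho of 0.77 (permutation p = 0.0137, adjusted 0.0642), and r of 0.68 without Control 3 and MCT-vehicle 2. Pearson's r passed adjustment in 7 of the 28 pairs, among them 3 of the 6 pairs within Scgb3a1, Bpifa1, Bpifb1 and Muc5b, where rho passed in 1, Scgb3a1 with Muc5b. Those 6 had r of 0.82 to 0.91, and of 0.53 to 0.85 without MCT-vehicle 2 and Control 4. The 3 pairs with Bpifa1 lost the most. Between Pigr and the secretory members r was 0.25 at most, and between Pigr and Tp63 it was -0.34 (permutation p = 0.270, adjusted 0.398). The points of each pair share their library and its depth.

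**Figure D4:**
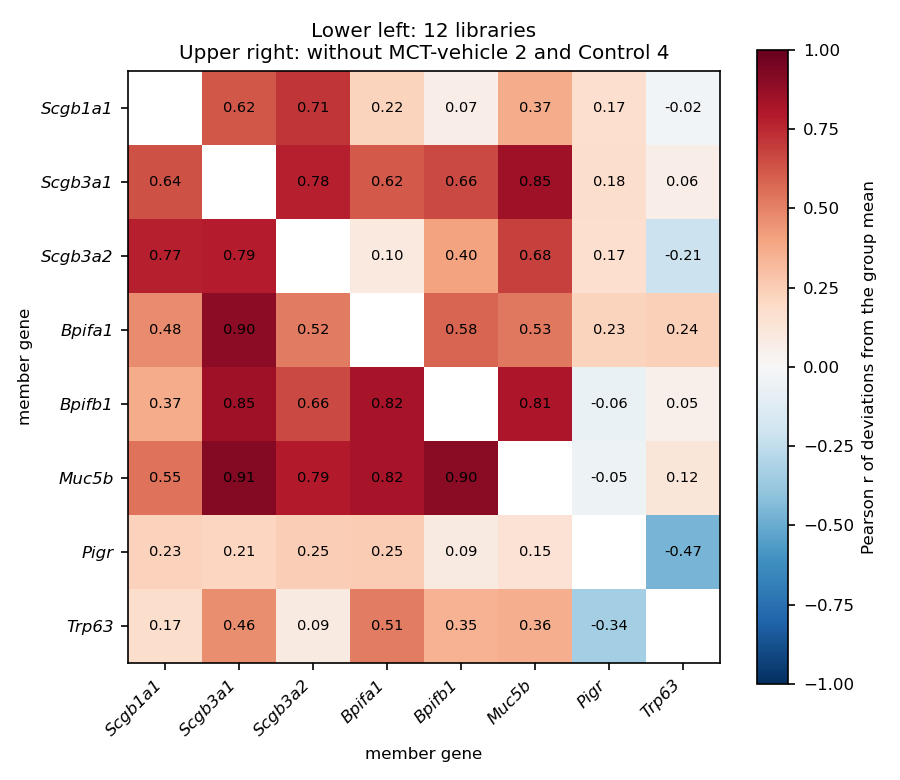
Pearson's r between tested members over deviations of log2 CPM from the group mean, lower left over 12 libraries and upper right without MCT-vehicle 2 and Control 4. The block of Scgb3a1, Bpifa1, Bpifb1 and Muc5b has r of 0.82 to 0.91 over 12 libraries and 0.53 to 0.85 over 10.

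The 3 genes whose deviations were most like the mean of the 3 secretoglobins over 12 libraries were Ppil6 (r = 0.97), Mybphl (r = 0.97) and Lratd1 (r = 0.97). Without MCT-vehicle 2 and Control 4, r was 0.89, 0.90 and 0.94. All 3 were highest in these libraries, where the heart muscle sum was highest too. Lratd1 held 52.6 CPM in MCT-vehicle 2 and 37.4 in Control 4 and 17.6 to 29.9 elsewhere. Mybphl held 6.44 and 5.92 CPM there and 1.05 to 2.14 elsewhere, and Ppil6 6.31 and 4.38 CPM and 2.41 to 3.88 elsewhere. The deviations were averaged without scaling, so Scgb3a1, with an SD of 2.59 against 0.227 for Scgb1a1 and 0.397 for Scgb3a2, weighed most. For Tp63, the only tested basal member, the most alike were Senp1 (r = 0.88), Cep112 (r = 0.86) and Flt3lg (r = 0.86). These values are descriptions of the genes that ranked highest among all those tested.

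Genes outside the 10 members, of the same epithelium and of other cells and tissues, were read from 16 further lists. The lists nearest to the members follow first. None of these lists had a gene called in MCT-Fer-1 against MCT-vehicle. The counts below stand beside 10.3% of all genes called higher and 8.28% lower in MCT-vehicle against Control, and 6.67% and 4.12% in MCT-Fer-1 against Control. Among 10 other club cell genes, 1 was called higher in MCT-vehicle against Control, Gabrp, a GABA receptor subunit of airway epithelium, 1.86 ± 0.58 higher on the log2 scale (SE; edgeR adjusted p = 0.0450). Gabrp was at 27.99 CPM in MCT-vehicle 2 and 4.46 to 5.81 CPM in the other MCT-vehicle libraries, against 1.39 to 4.04 in Control, and at 0.88 (adjusted p = 0.135) without the 2 libraries. Its call was lost without any single Control or MCT-Fer-1 library or MCT-vehicle 2. Cyp2f4, a P450 of club cells, was not called (adjusted p = 0.983) and was highest in MCT-vehicle 2 (188 CPM) and Control 4 (117 CPM). Among 9 goblet cell and mucin genes the only call was Spdef, the goblet cell transcription factor, lower at -0.57 ± 0.19 (adjusted p = 0.0494), which was lost in 10 of the 12 fits that left out 1 library, all but those without MCT-vehicle 4 or MCT-Fer-1 2. The gene matched to Muc5ac, the other gel-forming airway mucin, was counted in MCT-vehicle 2 only, at 0.227 CPM. It was matched through another name, so its identity is uncertain.

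Of 6 tested defence proteins of airways and glands, which other cells also make, 2 were called higher in both monocrotaline groups against Control and none lower. Slpi, an inhibitor of neutrophil elastase, was at 21.5, 32.4, 23.1 and 9.88 CPM in Control 1 to 4, at 80.7, 118, 82.7 and 58.8 in MCT-vehicle 1 to 4 and at 42.3, 97.6, 66.6 and 47.1 in MCT-Fer-1 1 to 4. Every library of both monocrotaline groups was above every Control library. The log2 fold change was 1.97 ± 0.36 (SE; edgeR adjusted p = 0.00360) in MCT-vehicle and 1.54 ± 0.36 (adjusted p = 0.0191) in MCT-Fer-1, both against Control, and 1.52 (adjusted p = 0.0145) and 1.30 (adjusted p = 0.0288) without the 2 libraries. The second call was lost without MCT-Fer-1 2 (adjusted p = 0.0565). Lcn2, the siderophore-binding lipocalin, was at 246 ± 84.3, 979 ± 444 and 1045 ± 535 CPM (SD, n = 4 each), 1.99 ± 0.42 (adjusted p = 0.00697) and 2.08 ± 0.42 (adjusted p = 0.00924) higher than Control on the log2 scale. Without the 2 libraries the first was 1.61 (adjusted p = 0.0529) and no longer called. Lcn2 is also a neutrophil product, and of 10 neutrophil genes 1 was called higher and 2 lower in MCT-vehicle against Control (0 and 1 without the 2 libraries). Slpi and Lcn2 did not show the pattern of the variable members in Control 4, where Slpi was at its lowest. In MCT-vehicle 2, where the variable members were highest, Slpi was also at its highest, at 118 CPM.

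On the side of Pigr's cargo, Jchain, which joins IgA and IgM into the polymers that Pigr binds, averaged 37.4 ± 15.9 CPM over the Control libraries, 103 ± 30.0 over those of MCT-vehicle and 86.0 ± 21.4 over those of MCT-Fer-1 (SD, n = 4 each). All monocrotaline libraries were above all Control libraries, the closest being 59.0 CPM in Control 1 and 59.2 in MCT-vehicle 1. Jchain rose by 1.46 ± 0.32 on the log2 scale (SE; edgeR adjusted p = 0.00822) in MCT-vehicle and by 1.20 ± 0.31 (adjusted p = 0.0313) in MCT-Fer-1, and without the 2 libraries neither was called (adjusted p = 0.0604 and 0.0967). The second call was also lost without any one of Control 2, 3 or 4 or MCT-Fer-1 2 or 4. Ighm, the heavy chain of IgM, was called higher in MCT-vehicle against Control, at 0.76 ± 0.23 (adjusted p = 0.0396), a call lost without any one of Control 2, 3 or 4 or MCT-vehicle 2, 3 or 4. These 2 were the calls among 5 tested genes of plasma cells and IgA transport.

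Of 11 other basal cell genes, 2 were called higher against Control in each monocrotaline group. Snai2, a transcription factor of basal cells that mesenchymal cells also express, averaged 4.32 ± 0.860 CPM over the Control libraries, 8.33 ± 1.29 over MCT-vehicle and 8.95 ± 0.693 over MCT-Fer-1 (SD, n = 4 each). Its log2 fold changes of 0.95 ± 0.16 (SE; edgeR adjusted p = 0.00204) and 1.05 ± 0.16 (adjusted p = 0.00149) were also called without the 2 libraries. Col17a1, a hemidesmosome collagen, rose by 0.45 ± 0.14 (adjusted p = 0.0395) and 0.60 ± 0.14 (adjusted p = 0.0160) on the log2 scale. The first of these was lost without the 2 libraries (adjusted p = 0.229) and in 8 of the 12 fits without 1 library, all but those without MCT-vehicle 4 or MCT-Fer-1 1, 2 or 3. The second was lost without Control 4 or MCT-Fer-1 3 (adjusted p up to 0.0539). Krt14, the keratin that pairs with Krt5, was at 2.68 ± 0.840 CPM in Control and 0.669 ± 0.546 in MCT-vehicle, with no overlap, but its log2 fold change of -1.97 ± 0.80 was not called (adjusted p = 0.111). Krt5 and Krt14, the defining keratins, were at 3.55 CPM or less in every library. In the list of 4 tested hillock and squamous genes, Sfn was called lower in MCT-Fer-1 against Control, at -1.54 ± 0.31 (adjusted p = 0.00788), and was at -1.89 ± 0.31 against MCT-vehicle, which was not called (adjusted p = 0.114). Krt4 was called lower in MCT-vehicle against Control, at -1.44 ± 0.44 (adjusted p = 0.0376), but not without any one of Control 2, 3 or 4 or MCT-vehicle 1, 2 or 4, nor without the 2 libraries (adjusted p = 0.190).

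**Figure D5:**
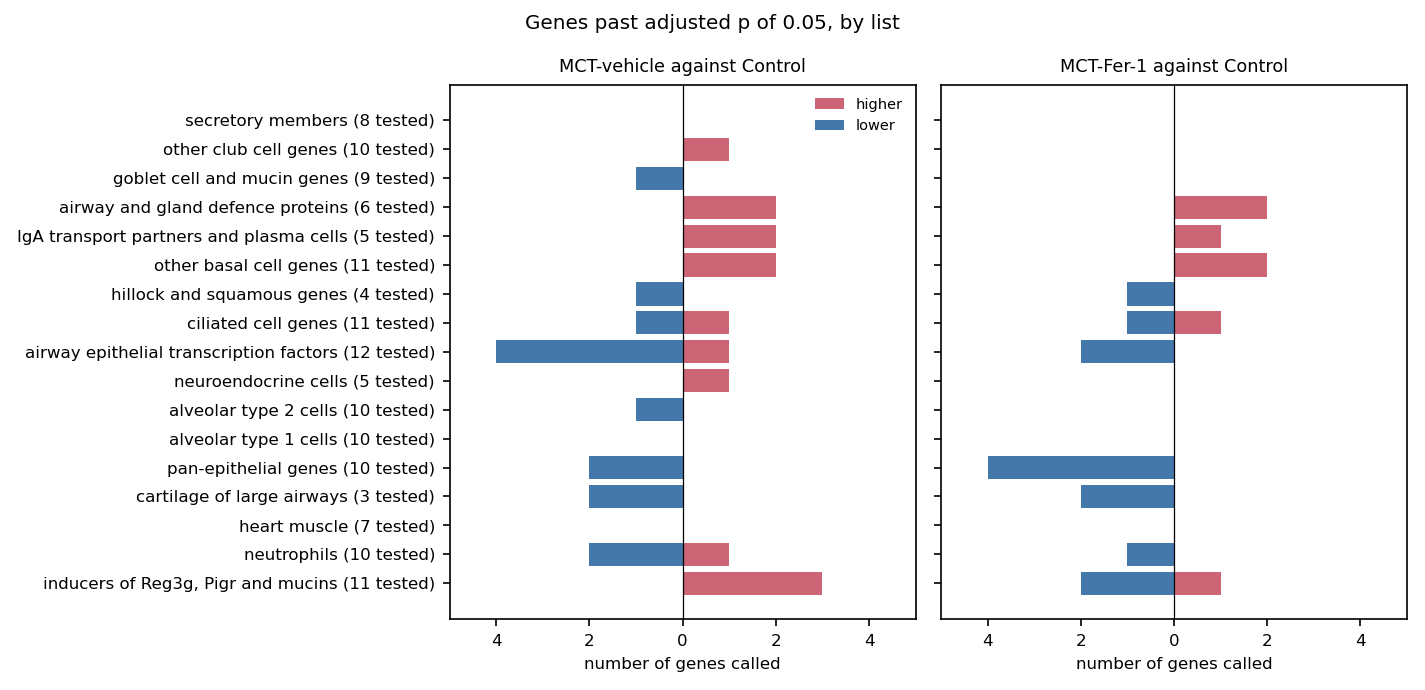
Number of genes called higher (right of 0) and lower (left of 0) at an adjusted p below 0.05 in each list against Control, with the number tested in brackets, over 12 libraries. No member is called in either comparison, where 18.6% and 10.8% of all genes are, and 4 of 12 airway transcription factors are called lower and 1 higher in MCT-vehicle against Control (1 and 0 without MCT-vehicle 2 and Control 4).

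Among 12 transcription factors of airway epithelium, 4 were called lower and 1 higher in MCT-vehicle against Control, and 2 lower in MCT-Fer-1 against Control. Foxa1, a forkhead factor of lung epithelium, was at 15.01, 15.9, 15.6 and 19.7 CPM in Control 1 to 4, at 10.1, 13.4, 9.77 and 9.66 in MCT-vehicle 1 to 4 and at 8.88, 8.71, 11.1 and 11.9 in MCT-Fer-1 1 to 4. All Control libraries were above all others. Its log2 fold change was -0.62 ± 0.15 (SE; edgeR adjusted p = 0.0124) in MCT-vehicle and -0.70 ± 0.15 (adjusted p = 0.0108) in MCT-Fer-1, and both calls were also made without the 2 libraries. Foxa2, its relative, was at 62.3 ± 5.38, 48.3 ± 3.60 and 45.05 ± 5.50 CPM (SD, n = 4 each), at -0.37 ± 0.10 (adjusted p = 0.0189) and -0.47 ± 0.10 (adjusted p = 0.00869) against Control. The first Foxa2 call was lost without Control 3 or Control 4 (adjusted p up to 0.0609) and without the 2 libraries (adjusted p = 0.118). Klf5, at -0.63 ± 0.18 (adjusted p = 0.0287), was called lower in MCT-vehicle against Control and lost its call without any one Control library or MCT-vehicle 3 or 4. Grhl2 was the remaining factor called lower. Its call was lost without any one of Control 2, 3 or 4 or MCT-vehicle 1, 3 or 4. It was also lost without the 2 libraries (edgeR adjusted p = 0.0693). Elf3, an epithelial ETS factor, was called higher, at 0.64 ± 0.15 (adjusted p = 0.0126), but not without the 2 libraries (adjusted p = 0.0745). Elf3 averaged 46.2 ± 7.56 CPM over the Control libraries, 71.8 ± 15.9 over MCT-vehicle and 42.4 ± 4.00 over MCT-Fer-1 (SD, n = 4 each). All MCT-Fer-1 libraries were below all MCT-vehicle libraries, and that difference of -0.76 ± 0.15 was not called (adjusted p = 0.123), as no gene was. Without the 2 libraries, 1 factor was called lower in MCT-vehicle against Control and 2 in MCT-Fer-1 against Control.

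Genes of all epithelia bear on these readings, since the members are epithelial. Of 10 pan-epithelial genes, 2 were called lower in MCT-vehicle against Control and 4 in MCT-Fer-1 against Control. Krt18, a keratin of simple epithelia, was at 144 ± 16.7, 90.5 ± 14.0 and 74.1 ± 4.04 CPM (SD, n = 4 each), at -0.66 ± 0.11 (SE; edgeR adjusted p = 0.00129) and -0.95 ± 0.11 (adjusted p = 0.000176) against Control. Krt8, its partner, was at -0.41 ± 0.10 (adjusted p = 0.0106) and -0.68 ± 0.10 (adjusted p = 0.000816). All 4 of these calls were also made without the 2 libraries. Krt19 and Cldn7 were called lower in MCT-Fer-1 against Control, at -0.50 ± 0.11 (adjusted p = 0.0140) and -0.31 ± 0.08 (adjusted p = 0.0299), the second not without any one of Control 1, 2 or 4 or MCT-Fer-1 2, 3 or 4, nor without the 2 libraries (adjusted p = 0.0967). Scgb1a1 and Pigr, at -0.29 and -0.32 in MCT-vehicle against Control, lay beside a median of -0.21 for the 10 pan-epithelial genes and 0.02 for all genes. Without the 2 libraries Scgb1a1 and Pigr were at -0.35 and -0.37, and the medians were -0.11 and 0.01. Of 11 ciliated cell genes, Tppp3, a tubulin-binding protein, was called lower in both monocrotaline groups against Control, at -0.45 ± 0.11 (adjusted p = 0.0130) and -0.50 ± 0.11 (adjusted p = 0.0133). Ccno, a cyclin-like protein needed to make many centrioles, was called higher in both, at 0.93 ± 0.29 (adjusted p = 0.0401) and 1.03 ± 0.29 (adjusted p = 0.0379). The Ccno calls were lost in 6 and 7 of the 12 fits without 1 library, in each case without any single Control library and, in MCT-vehicle, without MCT-vehicle 2 or MCT-Fer-1 4, and in MCT-Fer-1 without MCT-Fer-1 1, 3 or 4.

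A further list held 11 tested genes of pathways known to induce Reg3g, Pigr or mucins, receptors and the feedback inhibitor Socs3 among them. Of these 11 genes, 3 were called higher in MCT-vehicle against Control. Lif, a cytokine of the interleukin-6 family, was at 2.11 ± 0.576, 5.46 ± 1.14 and 5.79 ± 1.17 CPM (SD, n = 4 each), 1.37 ± 0.24 (SE; edgeR adjusted p = 0.00223) and 1.45 ± 0.24 (adjusted p = 0.00236) higher than Control on the log2 scale. Osm, oncostatin M, was at 3.08 ± 0.709, 6.96 ± 0.762 and 4.44 ± 1.59 CPM and was called in MCT-vehicle against Control, at 1.17 ± 0.26 (adjusted p = 0.00795, and 0.0522 without the 2 libraries). MCT-Fer-1 was below MCT-vehicle in every library for Osm, at -0.65 ± 0.26, which was not called (adjusted p = 0.344). Il22 and Il17a, which induce Reg3g and mucins, had 0 counts in all 12 libraries. Stat3, a transcription factor that Lif and Osm act through, was the third call, at 0.24 ± 0.08 (edgeR adjusted p = 0.0486). The Stat3 call was lost in 8 of the 12 fits without 1 library. It was kept in those without MCT-vehicle 3 or 4 or MCT-Fer-1 1 or 4. In MCT-Fer-1 against Control, Lif was called higher and 2 genes, Socs3 and Il4r, lower. The Socs3 call was lost without any one of Control 1 or 3 or MCT-Fer-1 1, 2 or 4, and the Il4r call without MCT-Fer-1 2 or 3.

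Of 10 alveolar type 1 cell genes none was called in any comparison, with 2, 1 and 0 at an unadjusted edgeR p below 0.05 in the 3 comparisons, against 32.1%, 12% and 25.2% of all genes. Of 10 alveolar type 2 cell genes Etv5, an ETS factor, was called lower in MCT-vehicle against Control, at -0.99 ± 0.25 (edgeR adjusted p = 0.0164, and 0.0845 without the 2 libraries). Of 5 neuroendocrine genes Resp18 was called higher there, at 1.02 ± 0.33 (adjusted p = 0.04999), and lost its call without any one library other than Control 4. Of 3 tested cartilage genes, Sox9 and Col11a2 were called lower against Control in both monocrotaline groups, but without the 2 libraries 1 and 0 of them were. The Col11a2 calls were lost in 9 and 8 of the 12 fits without 1 library, any single Control library among them, and the Sox9 call in MCT-Fer-1 without Control 2, 3 or 4. None of 7 tested heart muscle genes was called over all 12 libraries, with 0, 5 and 1 at an unadjusted edgeR p below 0.05 in the 3 comparisons, beside the same shares of all genes. Without the 2 libraries, 1 of the 7 was called higher in MCT-vehicle against Control and 1 in MCT-Fer-1 against Control. Beside these stood 10.9% and 6.39% of all genes called in either direction.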

How the data were processed

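RNA of whole rat lung was measured in 12 libraries, 4 per group, with groups and replicate numbers taken from the sample titles. The authors deposited a table of raw counts for each gene, per the file headers, which also give their mean count for each group (not used). Which aligner, counter, strand setting and genome build lie behind the count table is not given in the sources used here. Library totals ran from 11601929 to 70627239 counts, so 3 counts correspond to 0.0420 to 0.259 CPM, for counting error only.

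CPM use TMM-scaled totals computed here. Genes were kept by filterByExpr (15257 of 32883, 99.94% of counts). A group-means model was fitted to all libraries with edgeR 4.0.16 (R 4.3.3; robust quasi-likelihood, 9 residual degrees of freedom), with calls made below 0.05 after Benjamini-Hochberg adjustment. A standard error is the log2 fold change divided by the square root of F. Members below the filter were tested by exact permutation, and pairs of members by 100000 permutations within groups of log2 CPM (prior count 2) less the group mean. The test was checked on simulated data. DESeq2 1.42.0, limma 3.58.1 (voom), other scalings, no filter, a replicate block, a fit of the compared groups alone and leaving out each library were alternatives.

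The 10 members and 16 further lists were chosen with earlier results of these data known. Of 192 symbols in all lists, 184 matched, 4 of them through another name in RefSeq's table. Named genes are all members, up to 4 called genes per list with the smallest p, and the 3 genes most alike to the secretoglobins and to the basal members. The others were named after their values were seen: Grhl2, Cyp2f4, Krt14, Muc5ac, Myh6, Il22, Il17a, Col2a1, Acan and Matn1. Promoters come from RefSeq (GRCr8), which held 9 of the 10 members. Deposited libraries of a group were not duplicates: the smallest chi-square per degree of freedom within a group was 23.2.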

Additional observations from a re-analysis of the deposited data

Results flagged for a closer look

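A total of 11 values lay far from the other 3 of their group, the gap to the nearest being more than Dixon's critical share of the group's range. For normally distributed values chance alone flags about 1 in 20 groups of 4, and 30 groups were examined, 3 for each of the 10 members. That share does not hold here. A group with 3 libraries at 0 is flagged whatever its other value, as for Reg3g in Control and MCT-Fer-1 and Krt5 in Control. The groups also share libraries.

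MCT-vehicle 2 was set apart for 4 members: Scgb3a1 at 318 CPM, Bpifa1 at 144 CPM, Muc5b at 244 CPM and Reg3g at 1.27 CPM. Control 4 was set apart for Scgb3a1 at 114 CPM and Bpifa1 at 10.3 CPM. Both libraries also had the highest summed heart muscle genes, at 418 and 265 CPM against 17.3 to 81.8 CPM elsewhere, and the part of neighbouring tissue in these values was not tested. Pigr stood low in MCT-vehicle 4 at 1084 CPM, a library with no high member.

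The remaining values rest on few counts. Reg3g was at 0.277 CPM in Control 2 (5 counts) and at 0.0378 CPM in MCT-Fer-1 3 (1 count), and Krt5 was at 0.0550 CPM in Control 1 (1 count) and at 0.224 CPM in MCT-Fer-1 4 (16 counts).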

How the results depend on the processing

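No member with an adjusted p was called in MCT-Fer-1 against MCT-vehicle under any alternative run; DESeq2 gave none for Scgb3a1, Bpifa1 and Trp63 there, and Bpifa1 was not tested without MCT-vehicle 2 and Control 4 or with only the compared groups fitted. In MCT-vehicle against Control, 1 member was called by DESeq2 (Bpifb1), 1 without MCT-vehicle 2 and Control 4 together (Muc5b), and 0 to 1 when 1 library was left out (Muc5b without MCT-vehicle 2). In MCT-Fer-1 against Control, 1 was called when only the compared groups were fitted (Muc5b), and 0 to 1 when 1 library was left out (Muc5b without MCT-vehicle 2). Over all genes, 1675, 0 and 978 were called without MCT-vehicle 2 and Control 4, against 2843, 0 and 1646. In MCT-Fer-1 against MCT-vehicle DESeq2 called 244 genes and a fit of those groups alone 1. With 1 library left out the counts ran from 2021 to 2860, 0 to 41 (41 without MCT-vehicle 3) and 977 to 1714 (977, 978 and 995 without MCT-Fer-1 2, Control 4 and MCT-Fer-1 3).

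Of 473 recomputed member fold changes, 32 changed sign and 5 passed the threshold, 2 of them (Muc5b in MCT-vehicle against Control, without MCT-vehicle 2 and without it and Control 4) with the sign changed. DESeq2 gave no adjusted p for 7 of these values. In MCT-vehicle against Control the sign changed under limma voom for Scgb3a1 (-0.19), Muc5b (-0.87) and Trp63 (0.0189), and without MCT-vehicle 2 and Control 4 for Scgb3a1 (-0.60), Scgb3a2 (-0.0315), Muc5b (-1.85) and Trp63 (0.0661). In MCT-Fer-1 against MCT-vehicle it changed for Pigr under upper-quartile scaling (0.0018) and with no filter (0.0072), and without those 2 libraries for Pigr (0.0394), Scgb3a1 (0.00675), Muc5b (0.58) and Trp63 (0.0184). In MCT-Fer-1 against Control it changed for Trp63 (0.0845) without them. With 1 library left out, sign changes occurred within these ranges: in MCT-vehicle against Control, Bpifa1 -1.59 to 8.28, Muc5b -2.18 to 1.45, Scgb3a1 -3.43 to 4.14, Scgb3a2 -0.0733 to 0.31 and Trp63 -0.40 to 0.23. In MCT-Fer-1 against MCT-vehicle they were Muc5b -3.06 to 0.58, Pigr -0.12 to 0.0636, Scgb3a1 -5.15 to 0.0480 and Trp63 -0.46 to 0.11, and in MCT-Fer-1 against Control, Bpifa1 -5.13 to 1.05 and Trp63 -0.62 to 0.0923. The cause was not tested.

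Same-numbered libraries were little alike: their deviations correlated at -0.06 to 0.10 over 12 pairs, and 4 of 12 libraries correlated best with their own number. The labels do not say whether a number marks a litter, batch or day, and these values cannot decide it. The file headers number the Control and MCT-Fer-1 libraries otherwise than the titles do. Libraries with the same title number do not share a header number. A replicate block gave 2812, 0 and 1676 calls over all genes and none among the members, and turned Muc5b to -0.42 in MCT-vehicle against Control. Depth limits Reg3g and Krt5, which were at or under the limit of 3 counts in most libraries, and Bpifa1, at or under it in 6 of 12. Of 48 calls of genes in the other lists, all against Control, 23 were lost without MCT-vehicle 2 and Control 4, 7 with no filter, 7 with only the compared groups, 7 under the replicate block, 4 under limma voom, 0 by DESeq2, and 2 under each other scaling. Apart from the first, these were calls in MCT-vehicle of Gabrp, Spdef, Ighm, Resp18, Cd177, Stat3, Col17a1, Ccno and Klf5, and in MCT-Fer-1 of Jchain, Col11a2, Ccno, Ngp and Socs3.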
